A study of Homo sapiens with 15 samples.

Results

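Genes of the nuclear lamina and the inner nuclear envelope were followed through 15 RNA libraries of IMR90, a fibroblast line from human fetal lung. The genes were 10 in number and were chosen by symbol, not by their values: the lamins LMNB1, LMNB2 and LMNA, the inner membrane proteins LBR, EMD, TMPO and LEMD3, the chromatin-bridging factor BANF1, and the linker proteins SUN1 and SUN2. Each symbol matched 1 Ensembl ID among the 57736 genes of the deposited table, and all 10 passed the expression filter. The cells formed 5 groups of 3 libraries. In 4 groups the cells carried a RAS-expressing retrovirus, and the labels call them senescent. Of these, the R298P group received siRNA against METTL14 and a lentivirus encoding METTL14 with the R298P substitution, the wild-type group received that siRNA and a lentivirus encoding wild-type METTL14, the knockdown group received that siRNA and a vector, and the siControl RAS group received a non-targeting siRNA. The remaining group, control, carried an empty retrovirus and the non-targeting siRNA. Cells received the first siRNA 4 days after the retrovirus and were harvested 48 hours after the second siRNA. The sources used here name neither the RAS isoform nor a lentiviral vector in the siControl RAS and control cells. The labels list genotypes as knockout or knock-in, but siRNA and lentivirus are what their protocols describe, and these are followed here.

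The lamina is a meshwork of intermediate filaments under the inner nuclear membrane. B-type lamins (LMNB1, LMNB2) stay farnesylated and attached to the membrane, while A-type lamins, the splice products lamin A and lamin C of LMNA, are also found in the nuclear interior. Inner membrane proteins tie chromatin to this meshwork, and several of them share the LEM domain, which binds BANF1. Loss of lamin B1 is a widely used mark of senescent fibroblasts, in which the lamina loosens and heterochromatin is rearranged. METTL14 forms a complex with the methyltransferase METTL3, which places N6-methyladenosine on RNA, and the R298P substitution is known to weaken this methyltransferase.

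The libraries held 4917661 to 7763084 counts, so that 1 count stood for 0.129 to 0.203 CPM, the unit used below (counts scaled to a common library size, with TMM factors). METTL14 itself had 6.07 ± 2.88 CPM in knockdown cells and 21.98 ± 3.66 CPM in siControl RAS cells (SD, n = 3 each), a log2 difference of -1.91 (adjusted p = 5.49e-06). It had 945 ± 80.4 CPM in R298P and 545 ± 32.0 CPM in wild-type cells, where tags of the lentivirus and of the endogenous gene were not separated. On principal components of all genes, replicate 1 of the knockdown group stood apart on the third component (49.6, against -23.6 to 8.97 in the other libraries). On the fourth component replicate 3 of 3 groups (R298P, wild-type and siControl RAS) stood apart (-29.4 to -21.9, against -4.81 to 21.2 in the others). The 12 fibroblast markers summed to 20922 to 29005 CPM in RAS libraries and 13324 to 13710 CPM in control libraries. The 8 epithelial markers summed to 37.6 to 91.8 CPM in RAS and 135 to 148 CPM in control libraries, with CDH1, KRT5 and KRT14 at 0 counts in all 15 libraries. KRT18, KRT19, KRT8, CLDN4 and EPCAM held 3618, 2236, 1007, 505 and 151 counts over all libraries. CDH5 and CD3E, which mark endothelial cells and T cells, were at 0 counts throughout, and PTPRC, carried by all leukocytes, had at most 2 counts in a library. The 4 measured endothelial markers summed to 23.6 to 39.6 CPM in RAS and 13.6 to 19.8 CPM in control libraries. Of these, TEK held 2562 counts over all libraries and was higher in siControl RAS than in control (log2 0.66, adjusted p = 0.00431 by edgeR). The 5 leukocyte markers summed to 6.02 to 23.7 CPM in RAS and 2.96 to 7.97 CPM in control libraries. Of these, CD68 held 963 counts over all libraries and was higher in siControl RAS than in control (log2 1.96, adjusted p = 1.37e-05 by edgeR). Whether libraries of 1 group are separate cultures is not stated in the labels, and the spread behind the p-values may therefore be technical.

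Sequence upstream of the transcription start sites was read from RefSeq (GRCh38.p14), which holds an entry for 9 of the 10 genes (none for SUN1) with 15 windows of 300 bases. The windows were searched on both strands for 3 elements of promoters that are active in dividing cells. These were the E2F site (TTTGGCGC, TTTCCCGC, TTTGCCGC or TTTCGCGC), the CHR element TTTGAA, and the NF-Y box CCAAT. None of these spellings contains another, and RefSeq places the genes on chromosome 1 (LMNA and LBR), 5 (LMNB1), 11 (BANF1), 12 (TMPO and LEMD3), 19 (LMNB2), 22 (SUN2) and X (EMD). Of 35116 RefSeq promoter windows of this length, 3.3% held an E2F site, 15.2% a CHR element and 34.6% an NF-Y box. Counted by gene, with a match in any window of the gene, the shares were 4.0%, 18.2% and 39.7% of 27305 genes. The 250 bases before the start are shown for 4 genes, 5′ to 3′ on the strand of the gene, with matched letters in capitals (ATTGG is CCAAT on the other strand). LMNB1 and TMPO are the genes that fell most in RAS cells, and LMNA and LEMD3 are the genes with an E2F match, of which LMNA was called lower in RAS cells and LEMD3 was not called.

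LMNB1, second RefSeq start, chr5:126776886-126777135, plus strand: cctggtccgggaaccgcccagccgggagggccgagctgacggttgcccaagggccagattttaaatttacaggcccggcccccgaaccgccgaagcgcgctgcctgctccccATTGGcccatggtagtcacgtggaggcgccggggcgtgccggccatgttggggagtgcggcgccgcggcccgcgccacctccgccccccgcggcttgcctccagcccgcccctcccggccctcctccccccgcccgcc

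TMPO, first RefSeq start, chr12:98515323-98515572, plus strand: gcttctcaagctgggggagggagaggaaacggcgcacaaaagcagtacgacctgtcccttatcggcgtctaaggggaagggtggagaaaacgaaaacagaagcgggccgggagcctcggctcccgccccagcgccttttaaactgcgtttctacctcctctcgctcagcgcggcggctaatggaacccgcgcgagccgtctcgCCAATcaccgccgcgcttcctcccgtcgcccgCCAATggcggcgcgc

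LMNA, first RefSeq start, chr1:156082323-156082572, plus strand: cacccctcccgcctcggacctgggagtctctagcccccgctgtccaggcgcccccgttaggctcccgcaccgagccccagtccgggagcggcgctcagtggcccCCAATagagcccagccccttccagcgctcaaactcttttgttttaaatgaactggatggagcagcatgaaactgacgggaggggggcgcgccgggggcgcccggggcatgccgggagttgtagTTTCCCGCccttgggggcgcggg

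LEMD3, chr12:65169333-65169582, plus strand: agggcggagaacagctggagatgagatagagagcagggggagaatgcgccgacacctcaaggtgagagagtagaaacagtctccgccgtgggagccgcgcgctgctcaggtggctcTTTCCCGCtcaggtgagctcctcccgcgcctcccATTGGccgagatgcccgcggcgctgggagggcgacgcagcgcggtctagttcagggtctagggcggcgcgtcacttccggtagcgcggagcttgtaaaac

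LMNB1 held 1 NF-Y box, whose first base lay 138 bases before the second start, and its first start had no match. TMPO held 2 NF-Y boxes, 47 and 15 bases before its first start. LMNA held the E2F spelling TTTCCCGC 23 bases and an NF-Y box 146 bases before its first start, and its other 2 starts had none of the spellings. LEMD3 held TTTCCCGC 134 bases and an NF-Y box on the minus strand 100 bases before its start. Among the other genes, EMD had 2 NF-Y boxes, LMNB2 had 1 CHR element, the first start of SUN2 had 1 CHR element and 2 NF-Y boxes, and LBR and BANF1 had none of the spellings. A match describes letters in a window, not binding.

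RAS cells with the non-targeting siRNA were first set against control, to see how the nuclear envelope transcripts differed between senescent and control fibroblasts. LMNB1, LMNB2, LMNA, LBR, EMD, TMPO and BANF1 fell, 7 of the 10 genes, and LEMD3, SUN1 and SUN2 were not called. No gene rose. Over all 13516 tested genes, 21.9% were called lower and 24.0% higher in this comparison. The median log2 change of the 10 genes was -1.25 and that of all tested genes -0.0037. A gene was called at an adjusted p under 0.05 (edgeR's two-sided quasi-likelihood test, Benjamini-Hochberg over all tested genes).

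The B-type lamins fell by different amounts. LMNB1 had 6.67, 5.99 and 4.99 CPM in siControl RAS libraries, against 83.1, 71.8 and 90.3 CPM in control libraries. The groups were far apart, with 28 to 49 counts per library in siControl RAS and 436 to 543 in control. The log2 change was -3.78 ± 0.21 (SE; 95% interval -4.21 to -3.35; adjusted p = 7.79e-17). LMNB2, the other B-type lamin, had 24.8, 30.5 and 22.1 CPM in siControl RAS libraries, against 74.1, 60.9 and 63.0 CPM in control libraries. It did not overlap between the groups either, and its log2 change was -1.36 ± 0.20 (95% interval -1.76 to -0.95; adjusted p = 9.57e-07). The intervals of the B-type lamins do not touch. In a GENCODE annotation of another build LMNB2 shares exons on the same strand with TIMM13, a mitochondrial import factor. TIMM13 held 13072 counts over all libraries, against 3099 for LMNB2, and changed by -0.41 (adjusted p = 7e-04). The sources used here do not say how shared tags were assigned.

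LMNA, the source of lamin A and lamin C, had the highest counts of the 10 genes in every group. It had 186, 231 and 247 CPM in siControl RAS libraries, against 502, 592 and 690.0 CPM in control libraries. The log2 change was -1.43 ± 0.19 (95% interval -1.84 to -1.01; adjusted p = 7.2e-05). Gene-level 3′ counts do not part lamin A from lamin C. In bulk RNA, fewer cells that express a gene and less RNA per cell cannot be told apart, here and in all that follows.

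**Figure D1:**
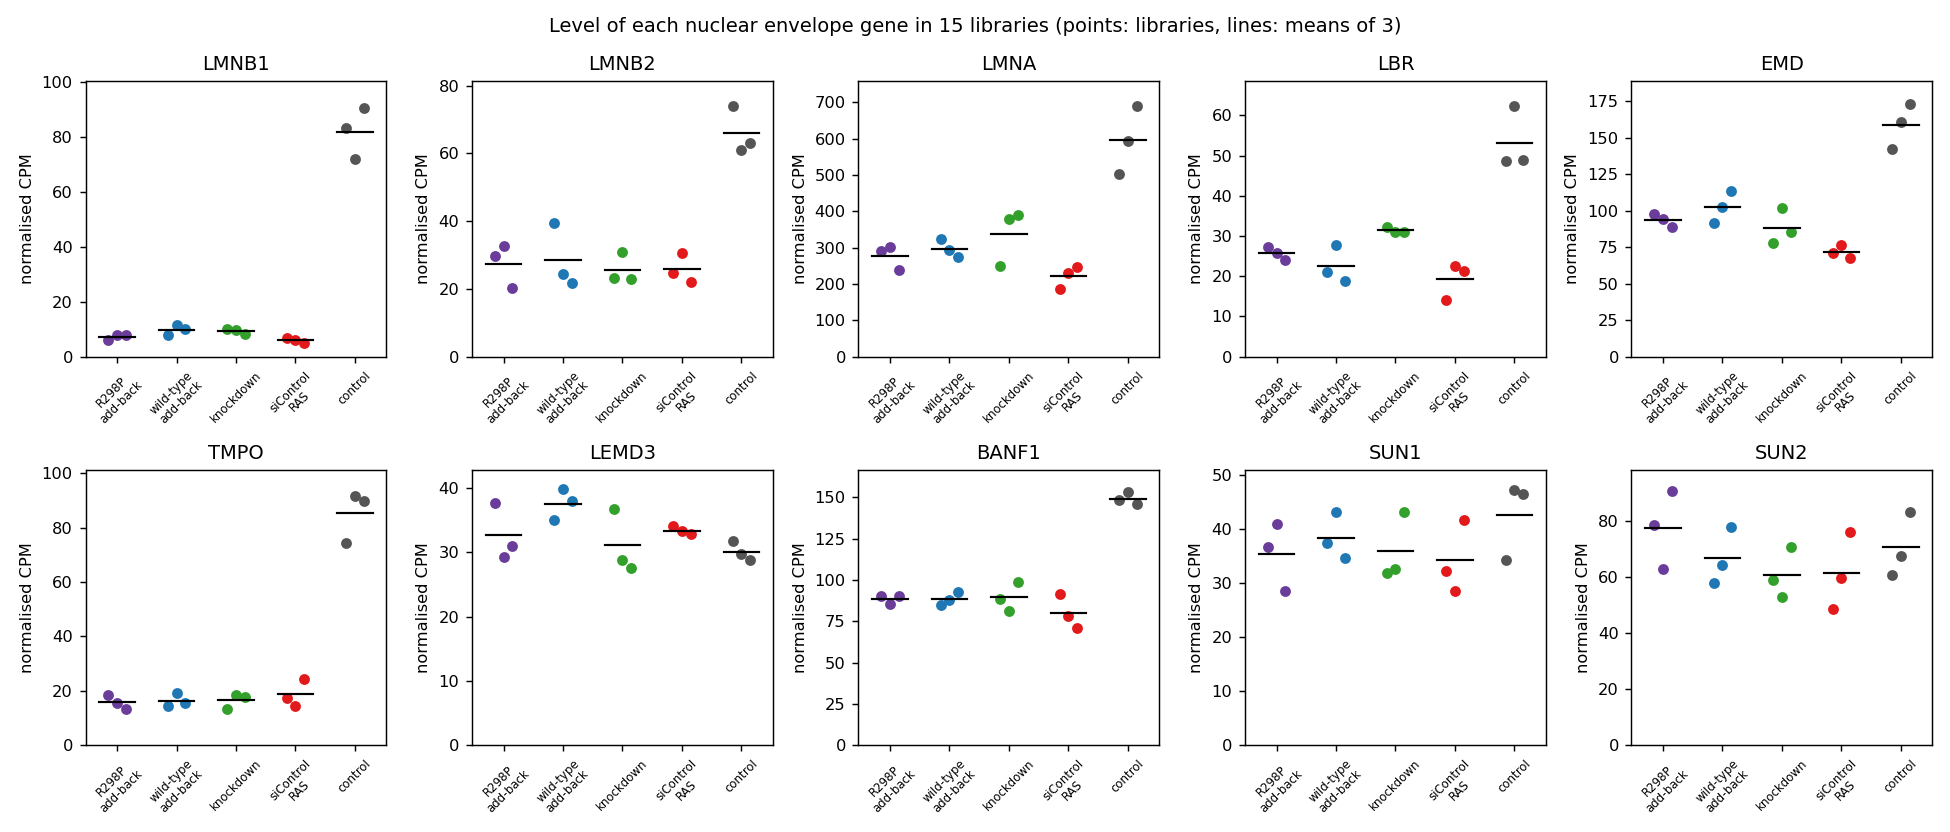
Level of each of the 10 nuclear envelope genes (y axis, TMM-normalised CPM, from 0) in the R298P add-back, wild-type add-back, knockdown, siControl RAS and control groups (x axis). Points are libraries and lines are means of 3; for LMNB1 the siControl RAS libraries lie at 4.99 to 6.67 CPM and the control libraries at 71.8 to 90.3 CPM, whereas the groups overlap for SUN1 and SUN2.

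Among the genes grouped here as inner membrane proteins, TMPO changed most. TMPO encodes the LAP2 proteins, LEM-domain proteins that bind lamins and BANF1. It had 17.6, 14.4 and 24.4 CPM in siControl RAS libraries, against 74.2, 91.6 and 89.7 CPM in control libraries, a log2 change of -2.18 ± 0.19 (adjusted p = 7.3e-12). LAP2 isoforms were not parted by the gene-level counts, so the fall is not assigned to any 1 of them. LBR, the lamin B receptor, binds heterochromatin and is also a sterol reductase. It had 14.03, 22.5 and 21.2 CPM in siControl RAS libraries, against 48.6, 62.3 and 48.9 CPM in control libraries, a log2 change of -1.48 ± 0.18 (adjusted p = 2.88e-08). EMD encodes emerin, a LEM-domain protein that is lost in a form of muscular dystrophy. It had 71.1, 76.4 and 67.9 CPM in siControl RAS libraries, against 142, 161 and 173 CPM in control libraries, a log2 change of -1.14 ± 0.11 (adjusted p = 6.68e-11). BANF1, the small DNA-binding protein that the LEM domain holds, had 91.3, 78.3 and 70.8 CPM in siControl RAS libraries, against 148, 153 and 146 CPM in control libraries. Its log2 change was the smallest of the 7, -0.89 ± 0.10 (adjusted p = 4.98e-09). None of these 4 genes overlapped between the groups. Annotated pseudogenes of TMPO and BANF1 held 0 to 9 counts over all libraries, against 2764 and 8816 for the genes. Exons of TMPO and BANF1 overlap TMPO-AS1 (41 counts) and EIF1AD (869 counts) on the opposite strand.

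LEMD3 (MAN1), a LEM-domain protein that restrains SMAD signalling, went the other way in level without passing the test. It had 34.1, 33.3 and 32.8 CPM in siControl RAS libraries, against 31.7, 29.8 and 28.8 CPM in control libraries. The groups did not overlap, but the log2 difference of 0.15 (95% interval -0.17 to 0.47) was not called (adjusted p = 0.468). SUN1 and SUN2 span the inner membrane and meet the KASH proteins of the outer membrane, which hold the cytoskeleton. SUN1 had 28.5 to 41.7 CPM in siControl RAS libraries and 34.2 to 47.1 CPM in control libraries, a log2 difference of -0.32 (95% interval -0.67 to 0.04; adjusted p = 0.139). It was called lower without replicate 1 of control (-0.46, adjusted p = 0.0472) or replicate 3 of siControl RAS (-0.48, adjusted p = 0.0402). SUN2 had 48.4 to 75.9 CPM in siControl RAS libraries and 60.8 to 83.0 CPM in control libraries, a log2 difference of -0.21 (95% interval -0.55 to 0.14; adjusted p = 0.335). Exons of SUN1 and SUN2 overlap those of GET4 and DNAL4 on the same strand, so these levels are uncertain in the same way as LMNB2. GET4 held 1369 counts over all libraries, against 3306 for SUN1, and DNAL4 held 1773, against 5894 for SUN2. In all, the libraries of the groups did not overlap for 8 of the 10 genes, against 54.2% of all tested genes.

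The cell division genes moved in the same comparison. Of 24 genes of division and DNA replication all 24 were called lower, against 21.9% of all tested genes. Their median log2 change was -3.80, and their summed level was 261 to 272 CPM in siControl RAS libraries and 2886 to 3116 CPM in control libraries. The LMNB1 change of -3.78 lay near that median, and the other 6 called genes lay between it and 0. The part of cell division in the levels of the lamina genes was not tested.

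**Figure D2:**
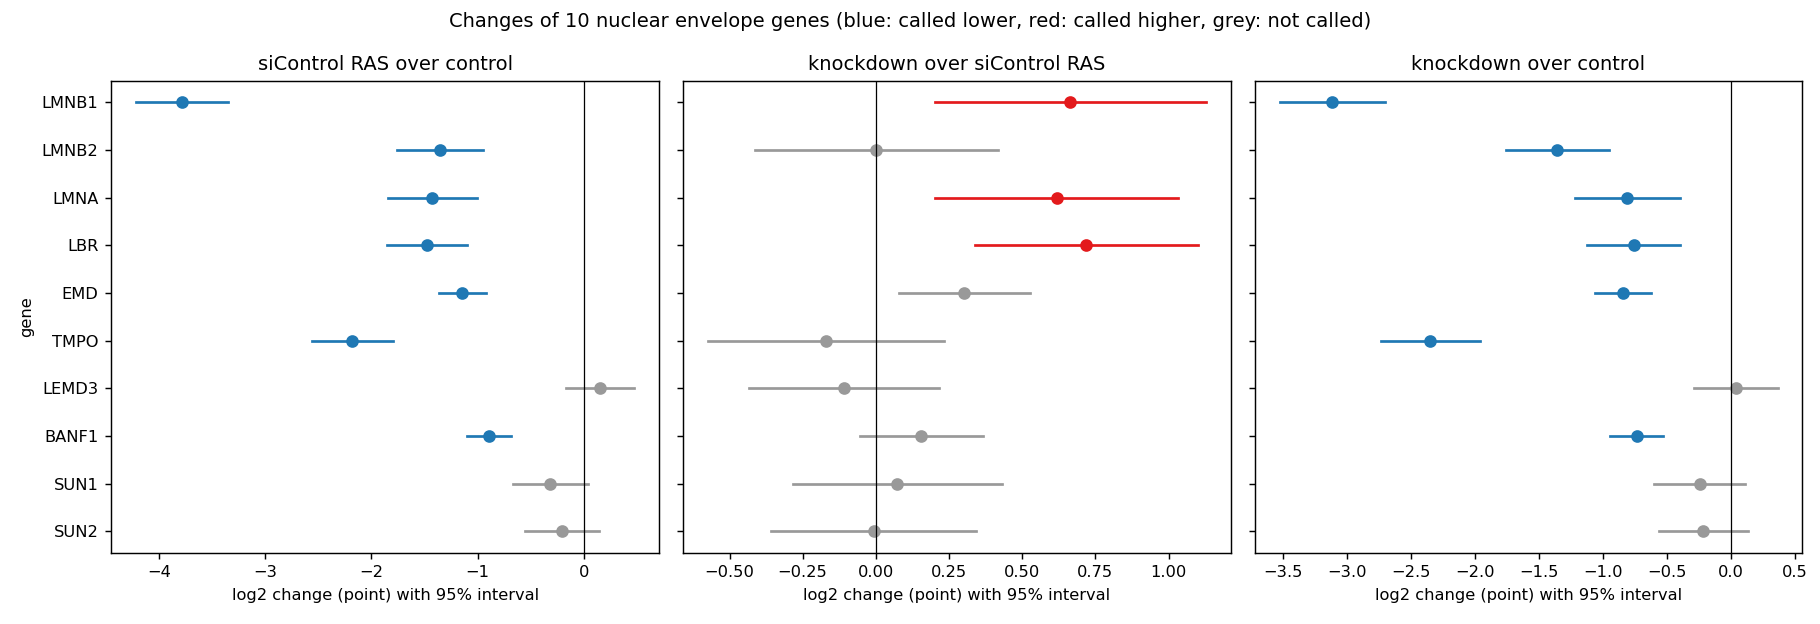
Fitted log2 change (x axis; points) with its 95% interval (lines) for each of the 10 genes (y axis) in siControl RAS over control, knockdown over siControl RAS, and knockdown over control. Blue marks genes called lower and red genes called higher at an adjusted p under 0.05; the 7 blue genes of siControl RAS over control are also blue in knockdown over control, and 3 genes are red in the middle panel. The x axes differ in scale.

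The knockdown group was then set against siControl RAS, to see which of these transcripts differed when METTL14 was lowered in RAS cells. LBR, LMNB1 and LMNA were called higher, 3 of the 10 genes, where 7.47% of all tested genes were called higher and 8.06% lower. No gene of the 10 was called lower. The median log2 change of the 10 genes was 0.115 and that of all tested genes -0.00283. This comparison and the one above share the siControl RAS libraries, on opposite sides of the difference.

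LBR had 32.3, 31.02 and 31.02 CPM in knockdown libraries, against 14.03, 22.5 and 21.2 CPM in siControl RAS libraries. The knockdown libraries lay close together and above every siControl RAS library, with a log2 change of 0.72 ± 0.19 (95% interval 0.34 to 1.10; adjusted p = 0.00607). Without replicate 1 of siControl RAS, the lowest library, the change was 0.53 and not called (adjusted p = 0.0763). LBR was called in 12 of 13 alternative analyses.

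LMNB1 had 10.2, 9.72 and 8.37 CPM in knockdown libraries, against 6.67, 5.99 and 4.99 CPM in siControl RAS libraries. These are 50, 63 and 51 counts against 49, 32 and 28. The groups did not overlap after normalisation, with a log2 change of 0.66 ± 0.23 (95% interval 0.20 to 1.13; adjusted p = 0.042). The call was near the threshold and held in 5 of 13 alternative analyses, with adjusted p from 0.0317 to 0.19. It was lost without replicate 2 or 3 of siControl RAS (adjusted p = 0.0863 and 0.15) and without replicate 1 or 2 of knockdown (0.113 and 0.101). It was also lost with DESeq2 (0.0513), limma-voom (0.174), no expression filter (0.0712) or only these 6 libraries in the fit (0.19). LMNA had 249, 378 and 389.5 CPM in knockdown libraries, against 186, 231 and 247 CPM in siControl RAS libraries. Replicate 1 of knockdown stood close to the highest siControl RAS library, and the log2 change was 0.62 ± 0.19 (95% interval 0.20 to 1.03; adjusted p = 0.0493). This call held in 5 of 13 alternatives as well, with adjusted p from 0.00329 to 0.163. Among the alternatives that ended it were those without any 1 of the siControl RAS libraries (0.163, 0.102 and 0.0642 without replicates 1, 2 and 3) and without replicate 2 or 3 of knockdown (0.152 and 0.153), with no expression filter (0.0798) and with only these 6 libraries in the fit (0.111).

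EMD had 77.8, 102 and 85.4 CPM in knockdown libraries, against 71.1, 76.4 and 67.9 CPM in siControl RAS libraries. The groups did not overlap, and the log2 difference of 0.30 (95% interval 0.08 to 0.53) was not called (adjusted p = 0.0584). It was called with upper-quartile factors (adjusted p = 0.0316), with no expression filter (0.0496) and without replicate 1 of knockdown (0.38, adjusted p = 0.0212). In all, 4 of the 10 genes (LBR, LMNB1, LMNA and EMD) did not overlap between these groups, against 30.0% of all tested genes. The other 6 genes gave no call. TMPO, which had fallen second most in siControl RAS cells, had 13.4, 18.7 and 17.7 CPM in knockdown libraries, against 17.6, 14.4 and 24.4 CPM in siControl RAS libraries. Its log2 difference was -0.17 (95% interval -0.57 to 0.23). The other intervals were -0.41 to 0.42 for LMNB2, -0.43 to 0.21 for LEMD3, -0.06 to 0.37 for BANF1, -0.28 to 0.43 for SUN1 and -0.36 to 0.34 for SUN2. TIMM13, which overlaps LMNB2, was called higher, by 0.39 (adjusted p = 0.00372).

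The knockdown left the 7 genes below control. The same 7 were called lower in knockdown than in control, where 16.7% of all tested genes were called lower, and 3 were not called. LMNB1 stood at 11.5% of the control mean in knockdown cells and at 7.20% in siControl RAS cells. The log2 change of LMNB1 in knockdown over control was -3.12 (95% interval -3.53 to -2.71; adjusted p = 6.99e-15). LBR stood at 59.1% of the control mean in knockdown and 36.1% in siControl RAS cells, and LMNA at 56.9% and 37.2%. TMPO stood at 19.5% of the control mean in knockdown cells and 22.1% in siControl RAS cells, and LMNB2 at 39.0% and 39.1%. Division genes also differed between knockdown and siControl RAS, 14 of 24 being called higher and 0 lower in knockdown. Over all tested genes, 7.47% were called higher and 8.06% lower in that comparison. The summed level of the division genes was 450 to 466 CPM in knockdown and 261 to 272 CPM in siControl RAS libraries. It was 352 to 389 CPM in R298P and 389 to 406 CPM in wild-type libraries. Against siControl RAS, 8 of 24 were called higher in R298P and 10 in wild type, where 6.27% and 6.32% of all tested genes were. Against knockdown 0 were called higher in either, and 0 (R298P) and 1 (wild type) lower. The sources name no lentiviral vector in siControl RAS cells, so METTL14 siRNA and vector cannot be told apart against that group. The epithelial markers summed to 81.5 to 91.8 CPM in knockdown and 37.6 to 58.4 CPM in siControl RAS libraries. The fibroblast markers summed to 20922 to 21679 CPM in knockdown and 27373 to 29005 CPM in siControl RAS libraries. Of these 12 markers, 7 were called lower and 2 higher, against 8.06% and 7.47% of all tested genes. The part of the division genes and markers in the levels of the lamina genes was not tested. Without replicate 1 of knockdown, the library that stood apart, 3 of the 10 genes were called higher (LBR, LMNA and EMD).

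**Figure D3:**
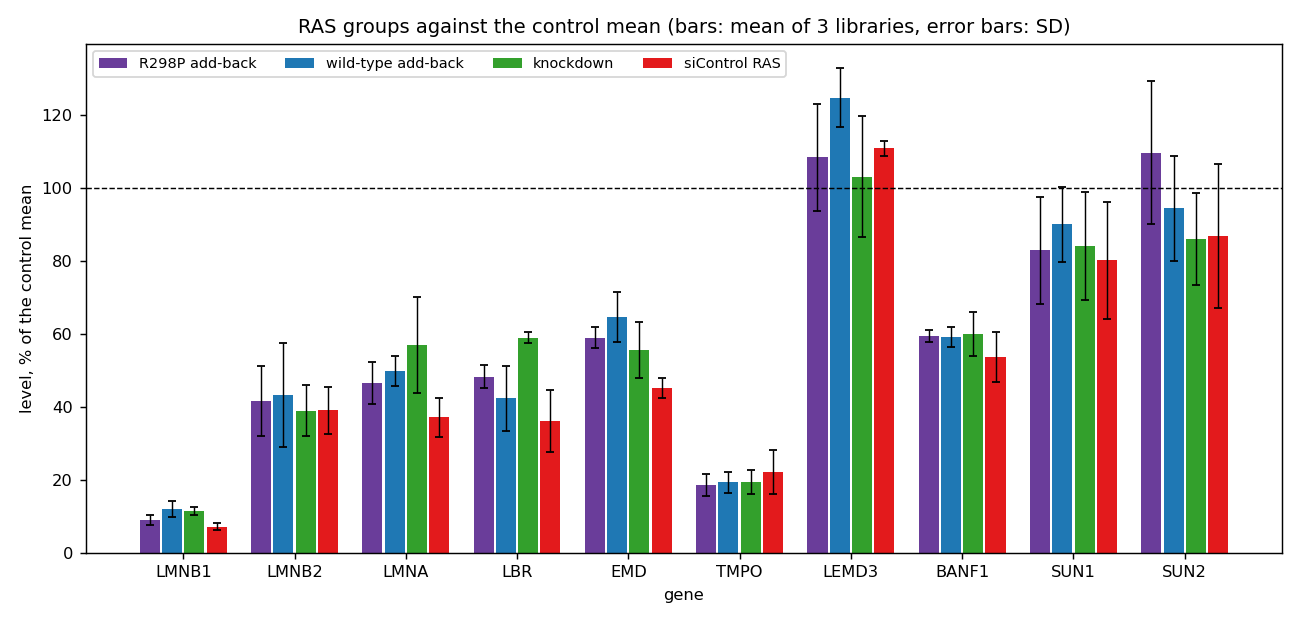
Level of each of the 10 genes (x axis) in the R298P add-back, wild-type add-back, knockdown and siControl RAS groups as a percentage of the control mean (y axis, from 0; bars are means of 3 libraries, error bars are the SD of those libraries divided by the control mean). LMNB1 lies at 7.20% to 11.99% of control and TMPO at 18.5% to 22.1%, and the dashed line marks the control mean, 100%.

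The add-back groups were set against knockdown, to see whether wild-type METTL14 or the R298P form moved these genes, and against each other. By edgeR 0 of the 10 genes were called in any of these 3 comparisons, and 0 by DESeq2 and 0 by limma-voom. At an unadjusted p under 0.05, edgeR gave 1 gene for wild type (LBR), 0 for R298P and 0 between the add-backs. Few genes at all were called, 0.621% of those tested for wild type against knockdown, 1.09% for R298P against knockdown and 0.0222% for R298P against wild type.

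LBR had 27.4, 25.9 and 23.9 CPM in R298P libraries, 21.0, 27.8 and 18.8 CPM in wild-type libraries, and 32.3, 31.02 and 31.02 CPM in knockdown libraries. Every add-back library lay below every knockdown library. The log2 difference to knockdown was -0.29 for R298P (95% interval -0.66 to 0.09; adjusted p = 0.733) and -0.47 for wild type (95% interval -0.85 to -0.10; adjusted p = 0.472). Between R298P and wild type it was 0.18 (95% interval -0.20 to 0.57). LMNB1 had 6.04, 8.01 and 7.91 CPM in R298P libraries and 7.88, 11.4 and 10.2 CPM in wild-type libraries. The R298P libraries lay below every knockdown library and the wild-type libraries overlapped with them. The differences to knockdown were -0.37 for R298P (95% interval -0.82 to 0.09) and 0.07 for wild type (95% interval -0.37 to 0.51), and -0.44 between R298P and wild type (95% interval -0.89 to 0.02). LMNA had 292, 302 and 237 CPM in R298P libraries and 323, 295 and 274 CPM in wild-type libraries. Its differences to knockdown were -0.29 for R298P (95% interval -0.70 to 0.12) and -0.19 for wild type (95% interval -0.60 to 0.22). R298P did not overlap with knockdown for 2 of the 10 genes (LBR and LMNB1), against 15% of all tested genes. Wild type did not overlap with knockdown for 1 of the 10 (LBR), against 13% of all tested genes. These comparisons and the one of knockdown with siControl RAS share the knockdown libraries, on opposite sides of the difference. A missed threshold does not show that the add-back and knockdown groups are alike.

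The genes that the knockdown had left without a call gave none in the add-back groups against knockdown either. TMPO had 18.4, 15.5 and 13.4 CPM in R298P libraries, 14.6, 19.2 and 15.6 CPM in wild-type libraries and 13.4, 18.7 and 17.7 CPM in knockdown libraries, and the 3 groups overlapped. Its difference to knockdown was -0.07 for R298P (95% interval -0.48 to 0.33) and -0.02 for wild type (95% interval -0.42 to 0.39). LMNB2 had 29.6, 32.5 and 20.3 CPM in R298P libraries, 39.4, 24.5 and 21.8 CPM in wild-type libraries and 23.2, 31.02 and 23.0 CPM in knockdown libraries. Replicate 1 of wild type was the highest of all RAS libraries, and the difference to knockdown was 0.10 for R298P (95% interval -0.32 to 0.51) and 0.14 for wild type (95% interval -0.28 to 0.56). BANF1 had 90.3, 85.7 and 90.02 CPM in R298P libraries, 84.7, 87.6 and 92.6 CPM in wild-type libraries and 88.4, 81.02 and 99.0 CPM in knockdown libraries. Its differences to knockdown had the narrowest intervals of the 10 genes, -0.22 to 0.20 for R298P and -0.23 to 0.19 for wild type. LEMD3 reached its highest level in wild-type cells, with 34.96, 39.8 and 37.95 CPM, against 36.8, 28.9 and 27.6 CPM in knockdown libraries (0.28, 95% interval -0.04 to 0.60). SUN1 ranged over 28.6 to 40.9 CPM in R298P, 34.6 to 43.1 CPM in wild-type and 31.9 to 43.2 CPM in knockdown libraries. SUN2 had 78.6, 62.9 and 90.4 CPM in R298P libraries, against 58.7, 52.9 and 70.4 CPM in knockdown libraries, the largest difference above knockdown among the 10 genes in R298P (0.35, 95% interval -0.00 to 0.69; adjusted p = 0.553). EMD differed from knockdown by 0.08 in R298P (95% interval -0.14 to 0.30) and by 0.21 in wild type (95% interval -0.01 to 0.43; adjusted p = 0.69).

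Against siControl RAS, EMD was the gene called in both add-back groups. It had 97.8, 94.2 and 88.8 CPM in R298P libraries, 91.7, 103 and 114 CPM in wild-type libraries, and 71.1, 76.4 and 67.9 CPM in siControl RAS libraries. All 6 add-back libraries lay above the siControl RAS libraries, with a log2 change of 0.38 ± 0.11 for R298P (adjusted p = 0.0158) and 0.52 ± 0.11 for wild type (adjusted p = 0.000938). The wild-type call held in 13 of 13 alternatives. The R298P call held in 10 of 13, at an adjusted p of 0.04997 without replicate 2 of R298P, and was lost without replicate 1 or 3 of siControl RAS (adjusted p = 0.0526 and 0.0673) or replicate 1 of R298P (0.0683). LMNB1 was called higher in wild type than in siControl RAS, by 0.73 ± 0.23 (adjusted p = 0.0258), in 7 of 13 alternatives. It was lost without replicate 2 or 3 of siControl RAS (0.061 and 0.107) or replicate 2 or 3 of wild type (0.135 and 0.0707), with limma-voom (0.136) and with only these 6 libraries in the fit (0.161). In R298P the LMNB1 difference to siControl RAS was 0.30 (95% interval -0.18 to 0.78; adjusted p = 0.491). For the genes called higher than in siControl RAS, the counts were thus 1 of 10 for R298P, against 6.27% of all tested genes, and 2 of 10 for wild type, against 6.32%. R298P did not overlap with siControl RAS for 2 of the 10 genes, against 29.9% of all tested genes. Wild type did not overlap with siControl RAS for 4 of the 10, against 28.7%. SUN2, at 78.6, 62.9 and 90.4 CPM in R298P libraries and 48.4, 59.4 and 75.9 CPM in siControl RAS libraries, differed by 0.34 (adjusted p = 0.222). It was called without replicate 3 of siControl RAS (0.52, adjusted p = 0.0403) and with the replicate number as a block (0.35, adjusted p = 0.0449). In all 5 groups the highest SUN2 library was replicate 3.

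Both add-back groups stayed below control in the same 7 genes. LMNB1 stood at 8.95% of the control mean in R298P cells and 11.99% in wild-type cells, with log2 changes of -3.48 (adjusted p = 7.02e-16) and -3.05 (adjusted p = 1.08e-14). TMPO stood at 18.5% in R298P and 19.3% in wild-type cells, LMNB2 at 41.6% and 43.3%, LMNA at 46.6% and 49.98%, LBR at 48.3% and 42.3%, EMD at 58.96% and 64.7%, and BANF1 at 59.5% and 59.2%. In R298P against control 17.3% of all tested genes were called lower, and in wild type against control 17.2%. The order of the 5 group means differed between genes, but for each of the 7 the only neighbouring groups that differed by test were control and the group next to it. Listed upward, the LMNB1 means were those of siControl RAS, R298P, knockdown, wild type and control. For LBR the upward order was siControl RAS, wild type, R298P, knockdown and control, and for EMD siControl RAS, knockdown, R298P, wild type and control. LMNA and BANF1 were also lowest in siControl RAS and had knockdown next to control. TMPO alone of the 7 had siControl RAS next to control and R298P lowest, at 15.8 ± 2.54 CPM against 16.4 ± 2.41 CPM in wild type (SD, n = 3 each). For LEMD3, SUN1 and SUN2 no neighbouring groups differed by test, and SUN2 was highest in R298P (77.3 ± 13.8 CPM) and lowest in knockdown (60.7 ± 8.91 CPM).

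The balance of the lamins was described by the ratio of their counts within a library, where scaling cancels. LMNA counts were 30.0 to 48.3 times LMNB1 counts in R298P, 25.9 to 41.0 times in wild type, 24.5 to 46.5 times in knockdown and 27.9 to 49.5 times in siControl RAS libraries, against 6.04 to 8.25 times in control libraries. The RAS groups overlapped with each other, and none overlapped with control. LMNA over LMNB2 was 7.51 to 11.2 in siControl RAS libraries and 6.78 to 10.9 in control libraries, so this ratio overlapped. LMNB2 over LMNB1 was 3.71 to 5.09 in siControl RAS and 0.698 to 0.891 in control libraries, so LMNB1 was the more counted B-type lamin in control and LMNB2 in siControl RAS libraries. In knockdown libraries LMNB2 over LMNB1 was 2.28 to 3.19, below every siControl RAS library. These ratios show unequal change and carry no test.

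**Figure D4:**
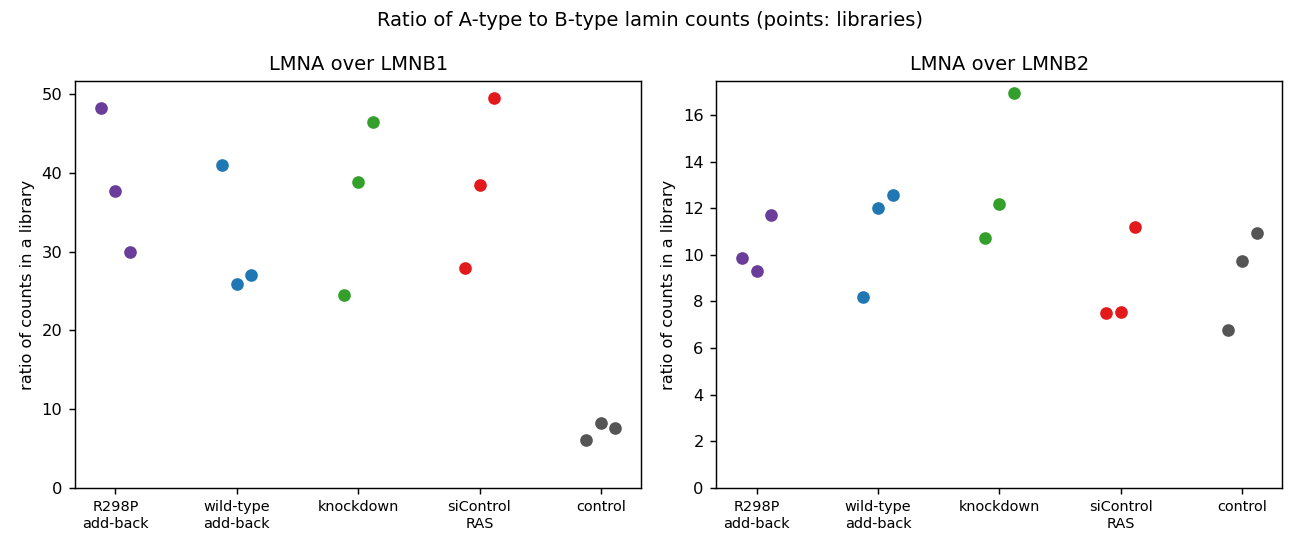
Ratio of LMNA counts to LMNB1 counts (left) and to LMNB2 counts (right) in each library (points; y axes, from 0) of the R298P add-back, wild-type add-back, knockdown, siControl RAS and control groups (x axes). On the left all RAS libraries lie at 24.5 or above and control libraries at 6.04 to 8.25; on the right siControl RAS (7.51 to 11.2) and control (6.78 to 10.9) overlap.

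Neighbouring parts of the nuclear envelope were read from related lists. Of other inner membrane and lamina-binding genes, 4 of 15 tested were called higher and 4 lower in siControl RAS against control, with a median log2 change of -0.0222. These shares lie near those of all tested genes, 24.0% higher and 21.9% lower. VRK1, the kinase that releases BANF1 from DNA, fell by 1.93 on the log2 scale, to 8.43 ± 3.17 CPM in siControl RAS, against 32.2 ± 6.12 CPM in control (SD, n = 3 each). TMEM201 (SAMP1) fell by 1.22 and NRM (nurim) by 1.2. LEMD2, another LEM-domain protein, was called higher (0.44), as were the ATPase torsin-1A, TOR1A (0.33), and its cofactor TOR1AIP2 (0.58). The KASH partners that the SUN proteins hold changed although neither SUN gene was called. SYNE1 (nesprin-1) rose by 0.74, to 187 ± 21.8 CPM in siControl RAS, against 112 ± 12.3 CPM in control. SYNE2 (nesprin-2) fell by 2.60, to 5.39 ± 1.72 CPM in siControl RAS, against 32.2 ± 3.33 CPM in control. SYNE3, which was also called lower, had 0.352 ± 0.341 CPM in siControl RAS and 4.50 ± 2.12 CPM in control and is named although it lies under the 5 CPM set for naming. In knockdown against siControl RAS, SYNE2 and SYNE1 were called higher (1.15 and 0.59), as was TMEM43, a partner of emerin (0.36). That is 2 of 3 KASH genes tested and 1 of 15 inner membrane genes tested, with 0 called lower in either list. Of all tested genes, 7.47% were called higher and 8.06% lower.

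Of 6 genes linked to lamin processing, which are enzymes and the prelamin A binder NARF, 1 was called higher (NARF) and 0 lower in siControl RAS cells. Over all tested genes 24.0% were called higher and 21.9% lower, and counts out of 6 are too small to be told from these shares. NARF, which binds farnesylated prelamin A, rose by 0.81, and ZMPSTE24, the protease that matures lamin A, differed by 0.10 (adjusted p = 0.501). In 7 of 13 alternatives, among them those without replicate 1 of control or replicate 3 of siControl RAS, 1 or 2 of these genes were called lower. By edgeR, 2 genes were lower at an unadjusted p under 0.05, ICMT (-0.34, adjusted p = 0.0508) and FNTB (-0.54, adjusted p = 0.0792), and 0 were called lower by DESeq2 and 1 by limma-voom. In knockdown against siControl RAS 0 of 6 were called by edgeR, DESeq2 or limma-voom, where edgeR called 15.5% of all tested genes. By edgeR 1 of the 6 had an unadjusted p under 0.05, FNTA (-0.42, adjusted p = 0.119). Of nuclear pore genes, 16 of 29 tested were called lower and 1 higher (TPR, 0.54), with a median of -0.516, where 21.9% of all tested genes were called lower and 24.0% higher. NUP155 fell by 1.35, NDC1 by 1.33 and NUP37 by 1.40, the last of which was not called without replicate 3 of control or replicate 2 or 3 of siControl RAS. In knockdown against siControl RAS, 1 of 29 pore genes was called higher and 1 lower, under the shares of all tested genes (7.47% and 8.06%). These were NUP98, a pore protein that also binds chromatin (0.73), and NUP188 (-0.47). The NUP188 call held in 6 of 13 alternatives. It was lost without replicate 2 or 3 of siControl RAS or replicate 1 or 3 of knockdown. Of 10 heterochromatin proteins linked to the lamina, 2 fell in siControl RAS cells and 1 rose, which is at or under the shares of all tested genes (21.9% and 24.0%). CBX5 (HP1 alpha), which binds LBR, fell by 1.03 and TRIM28 by 0.89, and HDAC3, which LAP2 and emerin bind, rose by 0.50. In knockdown against siControl RAS, a comparison that shares the siControl RAS libraries, CBX5 was called at 0.24 (adjusted p = 0.0321), TRIM28 at 0.31 (0.0423) and HDAC3 at -0.78 (6.02e-06). That is 2 of 10 called higher and 1 lower, against 7.47% and 8.06% of all tested genes. The CBX5 call was lost without replicate 1 or 3 of siControl RAS or replicate 1 of knockdown, and the TRIM28 call without replicate 1 or 2 of siControl RAS or replicate 3 of knockdown.

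**Figure D5:**
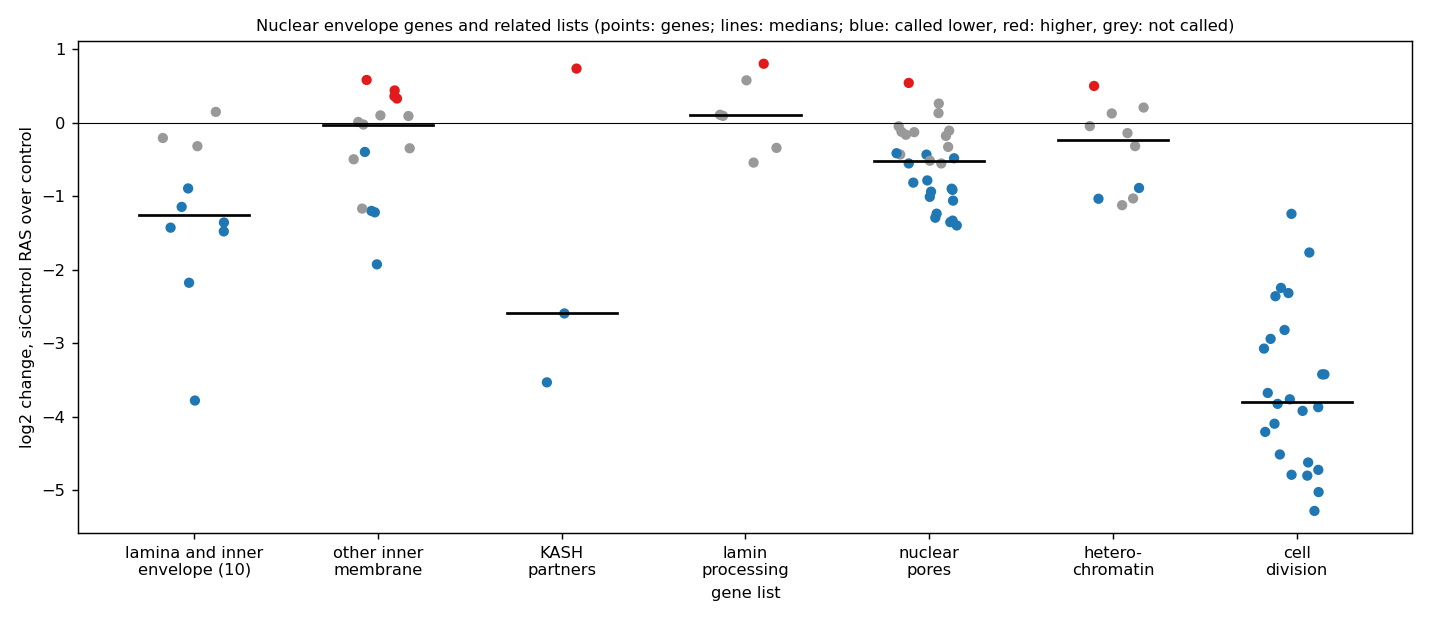
Fitted log2 change in siControl RAS over control (y axis) for the 10 genes and 6 related lists (x axis). Points are genes (blue called lower, red called higher, grey not called) and lines are medians, at -1.25 for the 10 lamina and inner envelope genes, -0.516 for nuclear pore genes and -3.80 for cell division genes.

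Genes with the most similar profile over the 5 group means were listed for each of the 7 genes that fell. The measure was the root mean square difference of log2 levels, each gene centred on its own mean, among tested genes with a mean of at least 5 CPM. The profile nearest to LMNB1 was that of TACC3 (0.0693), followed by CENPF (0.104) and TTK (0.114), which act at the spindle, the kinetochore and the spindle checkpoint. TMPO lay nearest to STIL, a centriole protein (0.0287), and then to FABP5 (0.0814) and FMN1 (0.0885). BANF1 lay nearest to NEDD1 (0.0199), SET (0.0275) and BRF1 (0.0294). LMNB2 lay nearest to PLP2, CDH2 and FIBCD1 (0.049 to 0.0565), LMNA to CASP6, ARHGAP29 and COPS6 (0.0346 to 0.0406), LBR to GFOD1, NET1 and EMC3-AS1 (0.0558 to 0.077), and EMD to MRPL1, ZNF787 and VKORC1L1 (0.0408 to 0.0492). The profiles rest on the same 15 libraries and carry no test.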

How the data were processed

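Lexogen QuantSeq 3′ libraries were made from the RNA of 15 IMR90 samples, as the labels' protocols state. The authors deposited whole-number counts per Ensembl gene, not normalised, for 57736 genes. The submitters' processing notes name Bowtie2, RSEM 1.2.12 and hg19, without saying what each was used for. For the annotation, strand and rounding, the sources used here give no statement. A symbol was matched to 52301 IDs (90.6%).

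All 15 libraries were fitted in 1 model with edgeR 4.0.16 (R 4.3.3): TMM factors, the default expression filter (13516 genes, 99.8% of counts), robust quasi-likelihood F test, 10 residual degrees of freedom, Benjamini-Hochberg adjustment over all tested genes, 10 comparisons. The biological coefficient of variation was 16.7%. The intervals are 95%. Profiles used log2(CPM + 0.5). An exact permutation test of 3 against 3 libraries cannot go below p = 0.1 and was not used. Alternatives were RLE and upper-quartile factors, no filter, DESeq2 1.42.0, limma-voom (limma 3.58.1), a replicate block, only the groups compared, and each library left out. No library copied another of its group (chi-square per degree of freedom 3.52 to 8.47).

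Named genes were the 10 genes in every comparison, METTL14, up to 3 called genes with the largest change per related list (at least 5 CPM in a group compared) and the 3 nearest profiles of each gene called lower in RAS cells; others are examples, chosen after their values were seen. PECAM1 matched no ID; MLIP, SYNE4 and NUP210 did not pass the filter. The genes and lists were chosen with earlier results of these data known.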

Additional observations from a re-analysis of the deposited data

How the results depend on the processing

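The change of each of the 10 genes in each of the 10 comparisons was recomputed under 13 alternatives, 1300 values in all. Of these 1265 kept their side of the threshold, 26 lost their call and 9 gained one. No called value changed sign, while 54 values without a call did. The calls lost or gained concern LMNB1, LMNA, LBR, EMD, SUN1 and SUN2 in the comparisons named in the report, and LMNA in wild type against siControl RAS (0.43, not called), which was called by limma-voom (adjusted p = 0.0484) and with only the compared groups in the fit (0.00268). The 7 genes called lower against control kept that call under every alternative in all 4 RAS groups. In knockdown against siControl RAS, 1 of the 10 genes was called with only those groups in the fit, against 3 with all libraries, and 1 to 3 with each library left out in turn. In wild type against siControl RAS it was 1 to 2, against 2, and in R298P against siControl RAS 0 to 1, against 1, with each library left out. In siControl RAS against control it was 7 to 8, against 7.

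The counts over all genes in the add-back comparisons were small and moved. For R298P against wild type, 3 genes were called, against 14 with no expression filter, 12 with DESeq2, 5 with limma-voom, 5 with only those groups in the fit and 1 to 2 with each library left out. For R298P against knockdown, 148 genes were called, against 225 with DESeq2 and 90 to 140 with each library left out. For wild type against knockdown, 84 were called, against 55 to 70. The cause of these shifts was not tested.

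The replicate numbers were not taken as pairs, as the labels do not say that a number marks a shared culture or day. Deviations from the group means correlated at -0.0621 to 0.0776 in the 30 same-numbered pairs. Of 15 libraries, 10 had their highest mean correlation, among the 3 replicate numbers, with libraries of their own number. An effect shared by a number is therefore not excluded, and the main model holds no term for it. With the replicate number as a block, 2 of the 10 genes were called in R298P against siControl RAS, EMD and SUN2 (0.35, adjusted p = 0.0449), and LMNA was not called in knockdown against siControl RAS (0.61, adjusted p = 0.0538). Depth limits LMNB1 most, with 28 to 76 counts in a RAS library.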
